A study of Rattus norvegicus with 6 samples.

Results

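The genes described here are 28 well expressed genes of cultured rat macrophages whose transcripts were more abundant in every Cyp2j4 knockout library than in any wild-type library. They were selected on their measured levels in 2 steps. A gene first needed a mean of 10 to under 1000 CPM (the reads of a gene per 1000000 reads on all genes of its library) in wild type, a range that held 7602 of the 29516 Ensembl genes in the deposited table. It then needed a lowest knockout level at least 15% above its highest wild-type level, which 28 of the 7602 met, or 0.368%. Because the choice used the levels in all 6 libraries, the difference between genotypes at these genes is a description and no test of it is given as support.

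The cells were bone marrow-derived macrophages of Wistar-Kyoto (WKY) rats, 3 libraries from wild-type animals and 3 from animals labelled Cyp2j4-/-. Macrophages are phagocytes that clear debris and microbes and signal to neighbouring cells, and those of this type are grown in culture from marrow precursors. Cyp2j4 is a cytochrome P450 of the epoxygenase class, which converts arachidonic acid to epoxyeicosatrienoic acids, lipid mediators that other enzymes then break down. The title of the series puts the question as whether a macrophage epoxygenase sets an expression pattern linked to fibrosis. No treatment, age or sex is given in the labels, nor how the deletion was made or whether each library came from its own rat, so p-values reflect only the spread among these libraries, which may be technical.

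The deposited table identifies genes by Ensembl ID and does not pair the IDs with names. None of the 28 IDs (0) could be matched to the RefSeq gene table used here, and no name was inferred. The functions of the 28 genes, their promoters, the markers of macrophages and of other cell types, and the level of Cyp2j4 itself were therefore not analysed here. The genes are described by their levels, by rank, and for 2 of them by ID. As the samples are bulk cultures, a higher level could reflect more cells of a kind or more RNA per cell, which cannot be told apart.

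Libraries held 21590429 to 33916549 gene counts, and each knockout library was shallower than each wild-type library. Knockout replicate 2 stood apart from the rest of its genotype. Its Spearman correlation of log2 CPM across genes was 0.983 with knockout replicate 1 and 0.985 with replicate 3, whereas those 2 correlated at 0.994 with each other and the wild-type libraries at 0.996 to 0.997. Its highest correlation was with wild type replicate 1, at 0.993. Knockout replicate 1 was also closest to a wild-type library, at 0.9947 with wild type replicate 3 against 0.9945 with knockout replicate 3. The edgeR calls and the number of genes that met the rule are given with and without knockout replicate 2. The summed levels, the folds of the means and the balance of directions are given only with it.

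The change at the 28 genes was mostly moderate. The mean knockout level exceeded the mean wild-type level by 1.26-fold to 2.76-fold, with a median of 1.41-fold, and 17 of the 28 genes lay under 1.5-fold. A further 7 lay between 1.5-fold and 2-fold, and 4 lay above 2-fold. Summed over all 28, the genes took 1044, 967 and 968 CPM in wild type replicates 1 to 3 and 1505, 1678 and 1596 CPM in knockout replicates 1 to 3. The wild-type mean was 993 ± 44.1 CPM and the knockout mean 1593 ± 86.4 CPM (SD, n = 3 each), a sum 60.4% higher in knockout. The set as a whole made up 0.0993% of all gene counts in the wild-type and 0.159% in the knockout libraries.

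**Figure D1:**
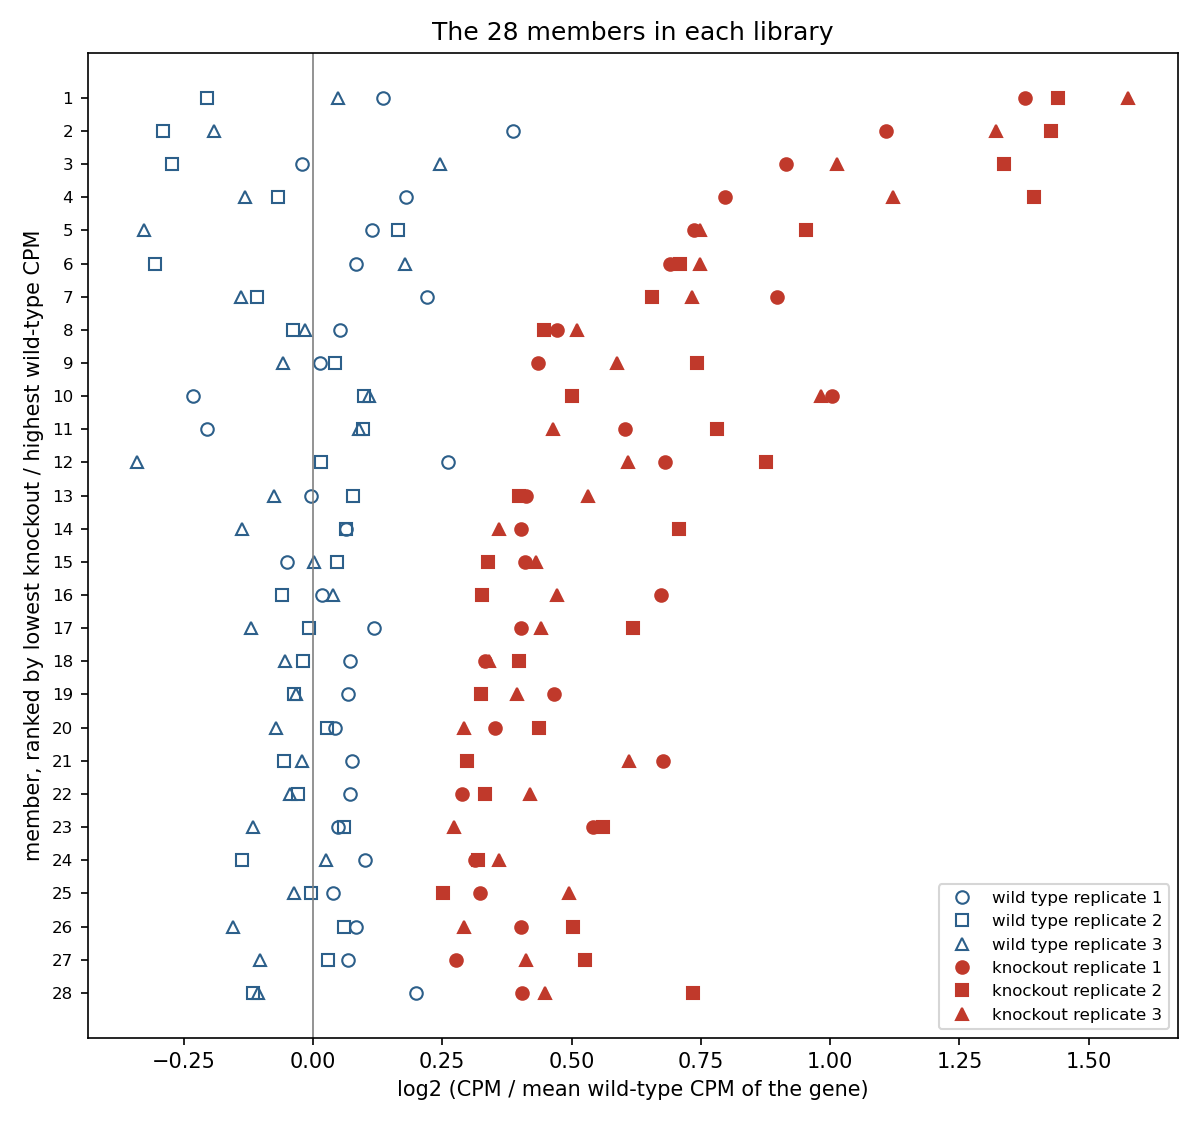
Level of each of the 28 genes in each library, as log2 of its CPM over its mean wild-type CPM (x axis), with genes ordered from the largest to the smallest ratio of lowest knockout to highest wild-type CPM (y axis, ranks 1 to 28). Open symbols are the 3 wild-type and filled symbols the 3 knockout libraries; the gap between them narrows down the plot, from a ratio of 2.37 at rank 1 to 1.153 at rank 28, and knockout replicate 2 (filled squares) is the highest library at 15 genes.

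The gene ENSRNOG00000010918 had the widest gap between the genotypes. Its level was 55.9, 44.1 and 52.7 CPM in wild type replicates 1 to 3 and 132, 138 and 152 CPM in knockout replicates 1 to 3. The lowest knockout library exceeded the highest wild-type library 2.37-fold, and no other member reached a ratio of 2. These levels rest on 1203 to 3343 reads per library, so counting error alone leaves that ratio between 2.23 and 2.51 (exact 95% interval from the 2 counts). The 3 knockout values lay close together relative to that gap, with a coefficient of variation of 7.12%.

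The next 3 genes by ratio also exceeded a 2-fold difference of the means. The gene of rank 2 was the weakest of them, at 14.1, 8.84 and 9.46 CPM in wild type and 23.3, 29.1 and 27.0 CPM in knockout. Rank 3 stood at 90.4, 75.9 and 109 CPM in wild type and 173, 232 and 185 CPM in knockout. Rank 4 stood at 83.4, 70.2 and 67.2 CPM in wild type and 128, 193 and 160 CPM in knockout. At each of the 3 genes knockout replicate 2 was the highest library and knockout replicate 1 the lowest of its genotype. Their lowest knockout levels exceeded the highest wild-type levels by 1.65-fold, 1.59-fold and 1.53-fold.

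Ranks 5 to 10 had ratios from 1.49 to 1.31 and showed 3 kinds of profile. At ranks 6 and 8 the knockout libraries lay close together: rank 6 had 11.3, 8.66 and 12.1 CPM in wild type and 17.3, 17.5 and 18.0 CPM in knockout. Rank 8 had 22.3, 21.0 and 21.3 CPM in wild type and 29.9, 29.3 and 30.7 CPM in knockout, so that both genotypes varied little. At ranks 5 and 9 knockout replicate 2 was the highest, with 44.3 CPM against 38.1 and 38.4 CPM in the other knockout libraries at rank 5. Rank 10 went the other way, with 24.8 CPM in knockout replicate 2 against 35.2 and 34.6 CPM in replicates 1 and 3. Its wild-type values were 14.9, 18.8 and 18.9 CPM, so even that low replicate was above all of wild type. Rank 7 resembled rank 10 more mildly, at 52.3, 44.2 and 46.6 CPM in knockout and 32.7, 26.0 and 25.5 CPM in wild type.

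ENSRNOG00000007081 was the most abundant of the 28 genes and the only member over 100 CPM in wild type. Its level was 173, 168 and 164 CPM in wild type and 210, 200 and 237 CPM in knockout, a 1.28-fold difference of the means. It ranked 25 of 28 by ratio, at 1.16, and with 4542 to 5748 reads per library the counting interval of that ratio was 1.114 to 1.204. The gap between the genotypes, 27.3 CPM, was larger than the range within wild type, 8.84 CPM, and smaller than the range within knockout, 36.8 CPM.

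The 28 genes lay toward the lower end of the levels that the rule allowed. Their wild-type means ran from 10.3 to 168 CPM with a median of 19.6 CPM, against a median of 39.8 CPM over all 7602 genes of the range. Of the 28, 18 (64.3%) lay under 30 CPM, as did 38.3% of the range. The share of genes that met the ratio fell with the level: 0.618% of 2913 genes of 10 to 30 CPM, 0.292% of 3085 genes of 30 to 100 CPM, 0.0818% of 1222 genes of 100 to 300 CPM and 0 of 382 genes of 300 to 1000 CPM. Of the 28, 20 lay under the median of the range, so that "well expressed" describes them against all macrophage transcripts rather than within it. Outside the range, 20 of 1209 genes of 5 to 10 CPM (1.65%) and 1 of 97 genes of at least 1000 CPM met the ratio. The share that met the same ratio in the other direction, lower in knockout, was 0.858% of genes of 10 to 30 CPM, 0.324% of 30 to 100 CPM, 0.164% of 100 to 300 CPM and 0.262% (1 of 382) of 300 to 1000 CPM.

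**Figure D2:**
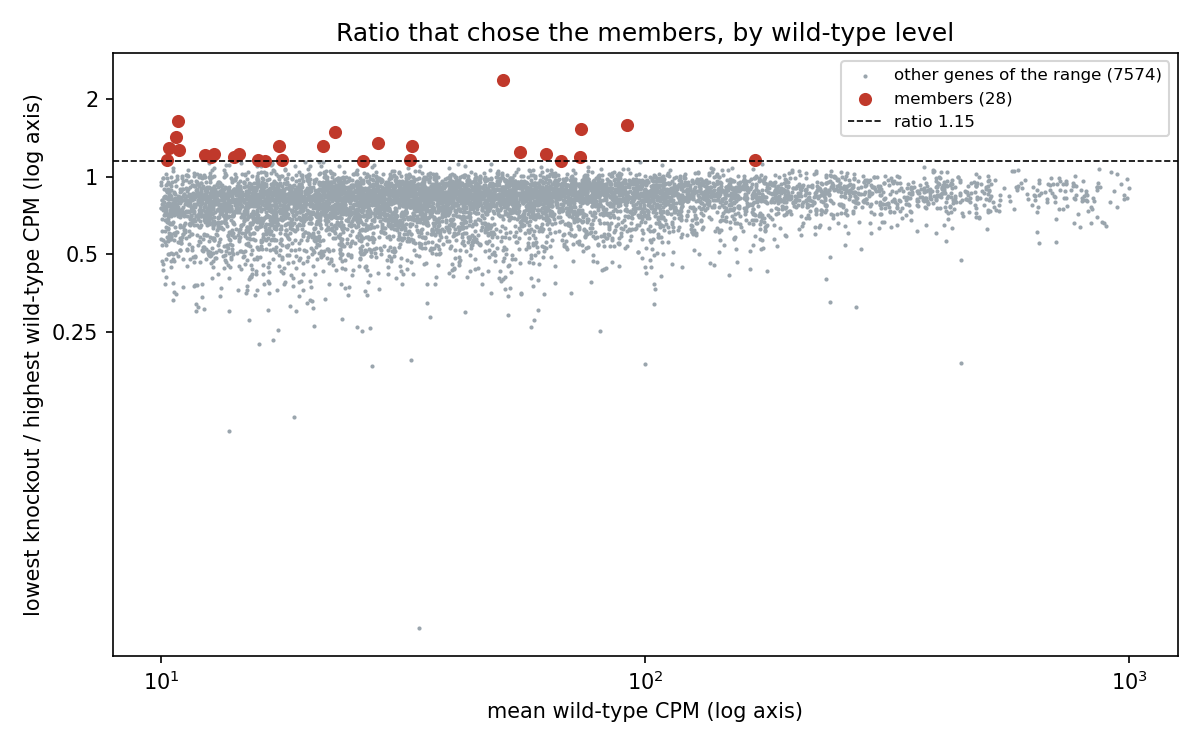
Ratio of the lowest knockout to the highest wild-type CPM (y axis, log scale) against the mean wild-type CPM (x axis, log scale) for the 7602 genes of the range. The 28 members (large points) lie above the dashed line, which marks the required ratio, 27 of them under 100 CPM, and the median of the other 7574 genes (small points) is 0.816.

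The rule cut through a continuous set of values. The 3 genes just inside the ratio stood at 1.153, 1.155 and 1.156 and the 3 just outside at 1.145, 1.140 and 1.138. The last gene inside, rank 28, had 76.9, 61.8 and 62.2 CPM in wild type and 88.7, 111 and 91.4 CPM in knockout. The first gene outside had 22.1, 19.5 and 21.8 CPM in wild type and 27.1, 25.3 and 26.7 CPM in knockout. At the lower limit of level, the member nearest to it had a wild-type mean of 10.3 CPM, and the nearest gene that met the ratio below it had 8.90 CPM. For 27 of the 28 genes the counting interval of the ratio lay wholly above 1, and for 11 it lay wholly above the required ratio. These intervals used the counts on which the genes were chosen, so they describe counting error and are no test of the difference. With 1 as the required ratio, so that the groups merely did not overlap, 311 genes of the range (4.09%) were higher and 978 lower in knockout. That count depended on the scaling: it was 510 higher and 560 lower with TMM, 527 and 516 with DESeq2 size factors and 542 and 475 with upper-quartile scaling.

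Members had a wider spread between wild-type libraries than other genes of the range, which was not tested. The median coefficient of variation over the 3 wild-type libraries was 8.04% for the 28 genes and 5.55% for the other 7574. Counting error alone would give medians of 4.03% and 2.82%, as the members are the weaker expressed. No comparison at matched level was made. The rule also limits the wild-type spread from one side, because it asks for a low highest value. Between the knockout libraries the medians were 8.68% for members and 9.98% for the rest, a quantity that the rule limits from one side because it asks for a high lowest value. The spread differed widely among members, from 2.64% to 26.7% in wild type and from 1.79% to 20.5% in knockout.

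The libraries at the edges of each group were not the same at members as elsewhere. Wild type replicate 1 was the highest wild-type library at 17 of the 28 genes (60.7%) and at 17.7% of the other genes of the range. Knockout replicate 2 was the highest knockout library at 15 members (53.6%) and at 31.4% of the others. It was the lowest at 9 members (32.1%) and at 51.8% of the others. The rule asks for a high lowest knockout value, whichever library holds it, so these positions were not free of the choice. Knockout replicate 1 was the lowest at 13 members (46.4%) and at 16.6% of the others. Wild type replicate 1 and knockout replicate 2 were also the pair of libraries from different genotypes whose deviations from their group means correlated most across all genes tested, at 0.445. At 9 members knockout replicate 2 was more than 15% above the mean of the other knockout libraries, at 3 it was below that mean by the same factor or more, and at 16 it was within that margin. Among the other genes of the range these shares were 12.3%, 37.4% and 50.3%. With TMM-scaled CPM, wild type replicate 1 was the highest of its genotype at 23 members (82.1%) and at 37.8% of the others, and knockout replicate 2 the highest at 17 (60.7%) and at 44.5%. The part of this shared deviation in the members' difference was not tested. The median log2 ratio to the wild-type mean over the 28 genes was 0.47, 0.54 and 0.48 in knockout replicates 1 to 3. The rule asks for a rise in each knockout library, so the likeness of these medians was not free of the choice. At genes chosen without knockout replicate 2, its median was 0.02.

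In the fit of all 11645 genes tested, 1 of the 28 members passed the threshold. The edgeR quasi-likelihood test called 13 genes higher in knockout (0.112% of genes tested) at an adjusted p under 0.05, and 12 of them lay outside the level range of the rule. The member was ENSRNOG00000010918, with a log2 fold change of 1.51 ± 0.12 (SE, n = 3 per group; edgeR adjusted p = 0.0105). ENSRNOG00000007081 had a log2 fold change of 0.41 ± 0.08 (SE, n = 3 per group; edgeR adjusted p = 0.161). Across the 28 genes the log2 fold changes ran from 0.38 to 1.51 with a median of 0.55, against a median of -0.01 over all genes tested, and the adjusted p-values ran from 0.0105 to 0.406. At an unadjusted p under 0.05 stood all 28 members, as the rule used this contrast, and 4.71% of the genes tested were higher in knockout at that p.

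The number of members that passed depended on the tool and on knockout replicate 2. The limma-voom test, like edgeR, called 1 of the 28, and 13 of the 11645 genes tested, higher in knockout. DESeq2 called 24 of the 28 higher in knockout, where it called 1.09% of the genes it gave an adjusted p. Without knockout replicate 2 the edgeR test called 16 members, against 1.74% of the genes tested. ENSRNOG00000007081 was among them, with a log2 fold change of 0.42 (edgeR adjusted p = 0.039), and DESeq2 called it too. In 3 fits the edgeR test called 0 members, those lacking knockout replicate 3, wild type replicate 2 and wild type replicate 3. Over all genes tested these fits called only 1, 0 and 0 genes higher in knockout. All 28 members had an unadjusted p under 0.05 in each, as the rule used this contrast. So did 633, 535 and 606 of all genes tested, in either direction. Other tools were not run on these 3 fits. There ENSRNOG00000010918 had log2 fold changes of 1.47, 1.41 and 1.53 (edgeR adjusted p = 0.079, 0.0514 and 0.12).

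Leaving a library out of the choice gives a view of it that the choice did not use. The libraries of the other genotype that it is compared with were used, which favours high shares at the chosen genes. The shares over the range carry no such choice, so they are no matched baseline. With knockout replicate 3 left out, the rule chose 41 genes, and that library lay above all wild-type libraries at 40 of them (97.6%), as it did at 21.7% of all genes of the range. With knockout replicate 1 left out, the rule chose 69 genes, and replicate 1 lay above all of wild type at 50 (72.5%), against 31.8% of the range. With knockout replicate 2 left out, the rule chose 82 genes, and replicate 2 lay above all of wild type at 37 (45.1%), against 20.6% of the range. Over those 82 genes the median log2 ratio to the wild-type mean was 0.42 for knockout replicates 1 and 3 together and 0.02 for replicate 2. For knockout replicate 1, the median over its 69 genes was 0.23, and 0.47 in the libraries that chose them. For knockout replicate 3, the median over its 41 genes was 0.41, and 0.44 in the libraries that chose them. With TMM-scaled CPM, knockout replicate 2 lay above all of wild type at 51 of 124 genes chosen without it (41.1%). Over the range that share was 36.8%. On that scale the median log2 ratio of replicate 2 to the wild-type mean over those 124 genes was -0.015. The medians for knockout replicates 1 and 3, each at the genes chosen without it, were 0.22 and 0.38. For knockout replicates 1 and 3 the TMM-scaled shares were 71.3% of 94 genes and 100% of 43 genes, against 32.5% and 32.9% of the range.

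The wild-type libraries gave shares closer to each other. Left out in turn, wild type replicates 1, 2 and 3 lay below all knockout libraries at 44 of 45, 33 of 33 and 35 of 37 of the genes chosen without them. Over the genes of the range these shares were 11.6%, 9.46% and 10.9%. Choosing genes with low values in the wild-type libraries that remain favours these counts in knockout libraries, and high knockout values favour them in wild type, to an extent that was not measured. Without wild type replicates 1 and 3, 25 and 27 of the 28 members still met the rule; those that did not had a mean outside the level range once that library was gone. All 28 met it without wild type replicate 2. Leaving out a knockout library cannot remove a member, since it can only raise the lowest knockout level.

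**Figure D3:**
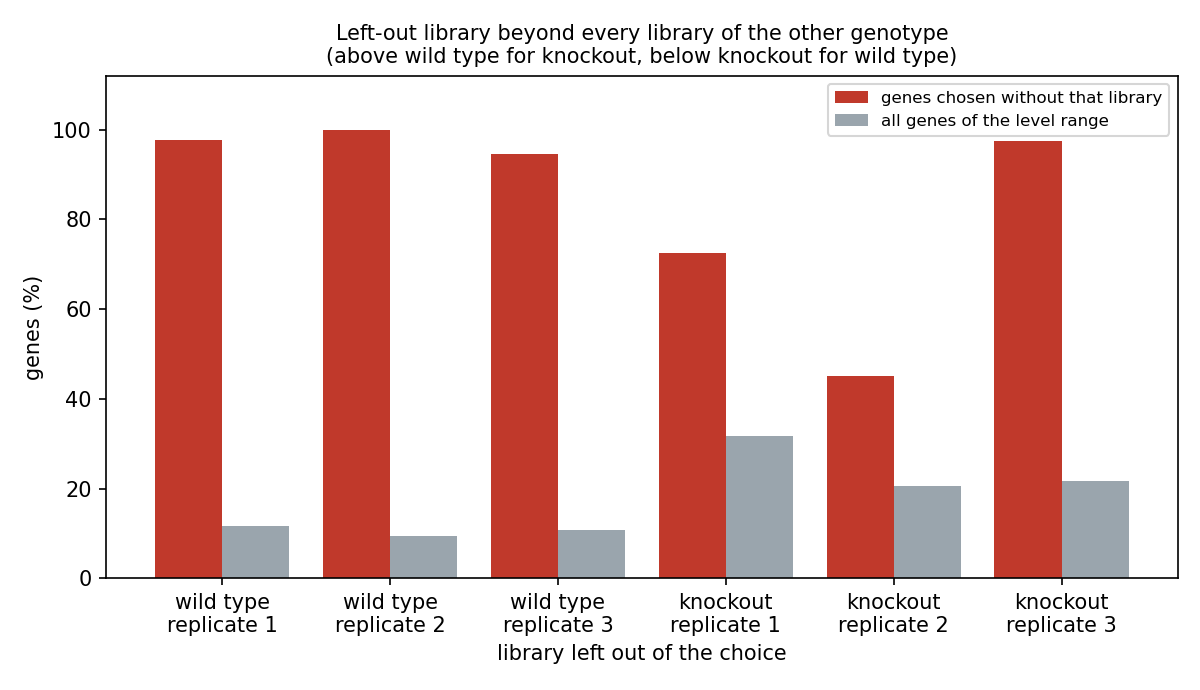
Share of genes (y axis, percent) at which a library left out of the choice (x axis) lay beyond every library of the other genotype. Dark bars are the genes chosen by the rule on the other 5 libraries and grey bars all genes of the level range; for knockout replicate 2 the dark bar is 45.1%, the lowest of the 6, and for wild type replicate 2 it is 100%.

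How libraries were scaled decided membership near the threshold. With library sizes scaled by TMM, the method edgeR uses to offset differences in RNA composition, 30 genes met the rule, of which 24 were among the 28. The factor was 0.942 for knockout replicate 2 and 1.02 and 0.985 for replicates 1 and 3, which raises the values of replicate 2 relative to the others. The 4 members that no longer met the rule had TMM-scaled ratios of 1.109 to 1.118, and the 6 genes that newly met it had ratios of 1.06 to 1.14 by library totals. ENSRNOG00000010918 had a ratio of 2.27 on the TMM scale. The set held 22 of the 28 genes under every scaling tried.

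**Figure D4:**
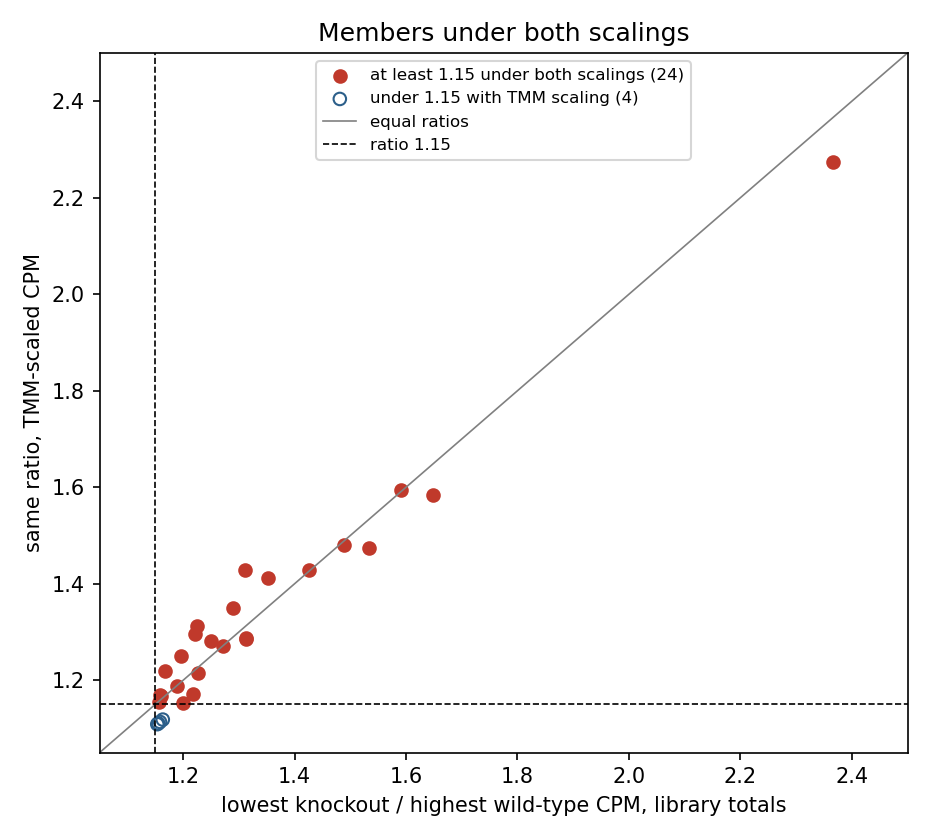
Ratio of the lowest knockout to the highest wild-type CPM for the 28 genes, with CPM by library totals (x axis) and with TMM-scaled CPM (y axis), each point a gene. Dashed lines mark the required ratio; 24 genes are above it on both axes, and 4 open points fall under it on the TMM scale, the lowest at 1.109.

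Scaling also changed the balance between directions. By library totals, 28 genes of the range met the rule and 38 met it turned round, with the lowest wild-type level at least 15% above the highest knockout level, so that 42.4% were higher in knockout. With TMM scaling 30 genes were higher and 16 lower (65.2% higher). With DESeq2 size factors 28 were higher and 13 lower (68.3%), and with upper-quartile scaling 30 were higher and 12 lower (71.4%). The number of genes higher in knockout thus moved by at most 2, whereas the number lower in knockout was 38 by library totals and 12 to 16 under the other scalings.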

How the data were processed

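RNA from 6 cultures of rat bone marrow-derived macrophages, 3 wild type and 3 Cyp2j4 knockout, was selected with poly-T beads and sequenced, per the labels' protocols. The authors deposited raw read counts for 29516 Ensembl genes. The submitters' processing notes name TopHat2, HTSeq and build rn4. Their versions, the annotation, the strand setting and the overlap rule: not given in the sources used here. Counts of overlapping and near-identical genes are therefore uncertain. The 5 summary lines that name no gene were left out, and gene rows took 80.4% to 81.3% of listed reads. Each column matched 1 sample, and 0 belonged to others. No 2 libraries were copies of each other (lowest chi-square per degree of freedom 9.85).

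The members and the gene lists were chosen with earlier results of these data known. The rule used CPM by library totals. Counts were tested in R 4.3.3 with edgeR 4.0.16 (filterByExpr, TMM, quasi-likelihood F test, genotype as the only term). The Benjamini-Hochberg adjustment covered 11645 genes. SEs came from the log2 fold change and the F value. Intervals of ratios are exact (Clopper-Pearson, 95%) and cover counting error only. Alternatives were other scalings, other limits of the rule, no filter, DESeq2 1.42.0, limma-voom (limma 3.58.1), a replicate block and each library left out in turn. Looking at a left-out library at the genes chosen without it was added after seeing the data. The rule for genes given individually took the largest ratios, the highest levels and members of gene lists. As no gene has a symbol, the first by ratio and by level are given by ID; other members, picked by rank after their values were seen, have none. The 26 gene lists and 13 marker lists were not used.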

Additional observations from a re-analysis of the deposited data

How the results depend on the processing

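The number of genes that met the rule stayed within 1.5 times 28 under the other scalings. It was 311 with a required ratio of 1 (510 to 542 with that ratio under the other scalings, a pair of choices combined after seeing the data), 10 with 1.3 and 4 with 1.5, 14 with a wild-type mean from 20 CPM and 48 from 5 CPM, and 33 to 82 with 1 library left out. Counts over 1.5 times 28 arose when knockout replicate 2 (82), knockout replicate 1 (69) or wild type replicate 1 (45) was left out. A rule over fewer libraries is easier to meet. Over all genes tested, edgeR called 14 genes (13 higher and 1 lower in knockout), and 59 with no filter on low counts, 14 with limma-voom, 196 with DESeq2 and 27 with the replicate block; with 1 library left out the count ran from 1 to 250. Leaving out knockout replicates 1, 2 and 3 gave 6, 250 and 2, and leaving out wild type replicates 1, 2 and 3 gave 4, 1 and 1. Of the 28 members, 1 was called, and 1 with limma-voom, 7 with no filter, 24 with DESeq2 and 0 to 16 with 1 library left out. Over all genes, the same fits called 13, 13, 54, 178 and 0 to 207 higher in knockout. These were 0.112% of genes with edgeR, 1.09% with DESeq2 and 1.74% without knockout replicate 2. The share with no filter is not given here. The rule used this contrast, which favours the members. The cause of the differences between fits was not tested. The median log2 fold change of members was 0.55, and 0.49 to 0.61 with 1 library left out. The log2 fold change of ENSRNOG00000010918 lay above 0 under the 12 alternative fits and passed the threshold in 9, and that of ENSRNOG00000007081 lay above 0 in the same 12 and passed in 2. Residuals of same-numbered libraries correlated at -0.44, -0.14 and 0.15, so the numbers were not taken as pairing the libraries; with the replicate block 1 member was called, as without it. At the depth here the members had 236 to 5748 reads per library, and the counting interval of the ratio included 1 for 1 member. As the genes were chosen on the same counts, this is no test of the others.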
